A study of Mus musculus with 85 samples.

Results

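The mitochondrial ribosomal proteins were described here across mouse preimplantation development. The members were all genes of the deposited table whose symbol is Mrpl or Mrps followed by a number and, in 3 cases, a letter from a to c (Mrps18a, Mrps18b and Mrps18c), with no pseudogene among them. This gave 78 of 37368 genes, of which 49 carry a large subunit symbol (Mrpl) and 29 a small subunit symbol (Mrps). They lie on 17 chromosomes.

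Mitochondria carry their own ribosome, which translates the few proteins encoded by mitochondrial DNA, all of them subunits of the respiratory chain and the ATP synthase. Its ribosomal RNAs, mt-Rnr1 and mt-Rnr2, come from mitochondrial DNA, whereas each of its proteins is made from a nuclear gene and imported. The oocyte supplies the embryo with its mitochondria and with stored mRNA, most of which is degraded around the 2-cell stage when the embryonic genome becomes active in the mouse. By descent, 46 members were classed as having a bacterial homologue and 32 as having no direct one; the 32 include Mrps36 and the S18 paralogues Mrps18a and Mrps18b.

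RNA was measured with Smart-seq2, which primes cDNA on the poly(A) tail and reads whole transcripts, in 85 libraries of wild-type B6C3F1/J embryos. Control embryos grew in KSOM (called standard medium here), where glucose and pyruvate were each at 0.2 mM and lactate at 5 mM. Age was counted in hours from hCG, the hormone that triggers ovulation. How many embryos or separate cultures went into each library is not given, and the p-values therefore describe variation among libraries, which may be technical. In standard medium there were 12 groups: early 2-cell (34 h, 3 libraries), mid 2-cell (42 h, 4), late 2-cell (48 h, 3), very late 2-cell (52 h, 3), early 4-cell (55 h, 4), late 4-cell (62 h, 4), early 8-cell (66 h, 3), late 8-cell (74 h, 2), morula (78 h, 6), early 16-cell (80 h, 5), early 32-cell (90 h, 4) and blastocyst (114 h, 4). Medium without pyruvate, with the same glucose and lactate, gave 2-cell embryos at 42 h (mid, 4 libraries), 48 h (late, 5), 52 h (very late, 4) and 55 h (latest, 4), morulae at 78 h (5) and blastocysts at 114 h (5). Medium without lactate, with the same glucose and pyruvate, gave morulae at 78 h (5) and blastocysts at 114 h (4). The last group, also of 78 h morulae, was kept without pyruvate but with KY-PYR-9, named in the labels as a myc inhibitor, at 20 nM (4). The column labels of the 4 standard blastocyst libraries carry the letters PVA, which no other column label used here does. What they stand for is not given. In every comparison with standard blastocysts, a difference that goes with this label cannot be told apart from one of medium or stage.

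Levels are in CPM, the reads of a gene scaled to a fixed library total, and each mean is followed by its SD across a group's libraries. Sequencing depth, inferred from the steps between values, was 10.2 M to 42.6 M reads per library. The summed level of 7 maternal oocyte markers went from between 28795 and 33645 CPM at 34 h to at most 0.675 CPM in the standard blastocysts. The sum of 6 trophectoderm markers lay between 46.1 and 51.4 CPM at 34 h and between 19077 and 22985 CPM in blastocysts. The sums of 7 cumulus cell markers and 4 sperm markers did not exceed 10.2 and 3.90 CPM in any library. The sum of 2 blood markers was higher in some groups. It was at most 2.22 CPM at 34 h and between 53.4 and 72.6 CPM in very late 2-cell libraries. In the latest 2-cell libraries without pyruvate it lay between 58.8 and 88.2 CPM. The source of these reads was not tested. In standard morula libraries 1 and 2 the members summed to 11394 and 11982 CPM, against 9388 to 10011 CPM in the other 4. The tests of members against standard morulae were also computed without these 2 libraries. Because CPM is relative, less RNA per embryo and fewer cells cannot be told apart, and a shift in the make-up of a library moves all its genes. The calls and log2 changes of the members were therefore also computed with median-ratio scaling, with quantile scaling and after removal of the trend with gene length. Summed levels, levels per kb, correlations of courses, ribosomal RNAs and counts of other gene lists are in CPM as deposited only. The shares of all genes given beside the counts of members are also those in CPM as deposited.

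Together the 78 members made up a smaller share of the early 2-cell transcriptome than of any later group. Their summed level was 1278 ± 117 CPM (SD, n = 3) at 34 h, 3549 ± 105 (n = 3) at 48 h, 8092 ± 1143 (n = 4) in early 4-cell embryos and 10886 ± 723 (n = 2) in late 8-cell embryos. Between standard morulae at 78 h and early 16-cell embryos at 80 h the sum went from 10356 ± 1067 (n = 6) to 6127 ± 284 (n = 5), and it was 6298 ± 1058 (n = 4) in blastocysts. The 2 groups do not overlap, since the lowest morula library stood at 9388 CPM and the highest 16-cell library at 6625 CPM. This drop was not recomputed under another scaling. The 100 most abundant genes took 32.0% to 33.7% of the values in the 16-cell libraries and 24.2% to 34.8% in the morulae, and the part of this was not tested. In late 8-cell embryos the members with a large subunit symbol summed to 7072 CPM and those with a small subunit symbol to 3814 CPM. These classes were read from the symbol alone, not from the place of each protein in the ribosome. Over the 12 standard group means, 42 members correlated above 0.9 with the median course of all members (Pearson's r, a description over 12 points that share libraries). The courses most like the median were those of Mrps24, Mrps18c and Mrpl2. For 5 members, Mrpl9, Mrpl48, Mrpl24, Mrpl10 and Mrps23, r was below 0.

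**Figure D1:**
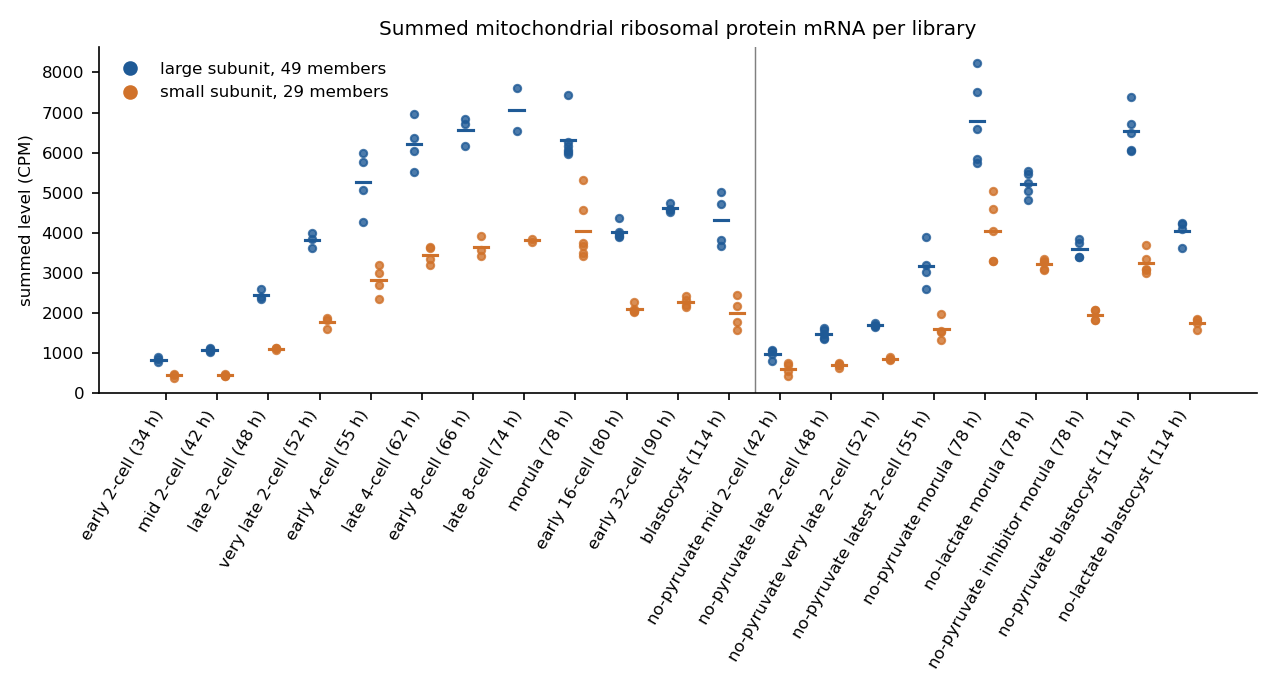
Summed level in CPM of the 49 members with a large subunit symbol (blue) and the 29 with a small subunit symbol (orange) in each library. Bars are the group means. Groups in standard medium stand left of the line and groups in altered media right of it. The sums rise from the early 2-cell group to the late 8-cell group and are lower in the 16-cell, 32-cell and blastocyst groups than in the morulae.

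In levels per kb of transcript, the scale on which genes can be compared, the members differed widely. Over the standard groups the median member stood at 44.1 CPM per kb. The highest were Mrpl22 at 484, a protein that lines the exit tunnel in the bacterial ribosome, Mrpl20 at 281, an early assembly protein in bacteria, and Mrps18b at 274. The lowest were Mrps5 at 1.62, Mrpl23 at 3.09 and Mrps35 at 5.31. In GENCODE gene models the exons of 31 members overlap those of another gene. The gene models used for counting are not given and may differ. The counting was not stated to use strand either, so reads of such a pair cannot be told apart. Of the members with a negative r, Mrpl9, Mrpl48, Mrpl24 and Mrpl10 are among these, and Mrps23 is not.

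The first comparison asked what happened over genome activation, from early to late 2-cell embryos. Most members rose, and a small set that included several of the more abundant members at 34 h fell. Of the 78 members, 60 were higher and 8 lower at 48 h, against 57.7% of all genes tested higher, 13.7% lower and 71.4% called in either direction (limma, Benjamini-Hochberg adjusted p below 0.05). The 3 libraries of each age did not overlap for any of these 68. The same share over all genes was not computed, so this does not set the members apart. The median log2 change of the members was 2.04, and that of all genes 0.85. Maternal oocyte markers lay between 2932 and 3072 CPM at 48 h, and the 100 most abundant genes took 48.5% to 52.5% of the values at 34 h and 23.7% to 26.7% at 48 h. The part these play in the members' change was not tested. Under median-ratio scaling 44 members were higher and 25 lower, under quantile scaling 42 and 25, and with the length trend removed 49 and 22. These scalings put the median of all genes at 0.10, -0.07 and -0.18. All 8 members that fell and 41 of the 60 that rose kept their call and direction under all 3.

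**Figure D2:**
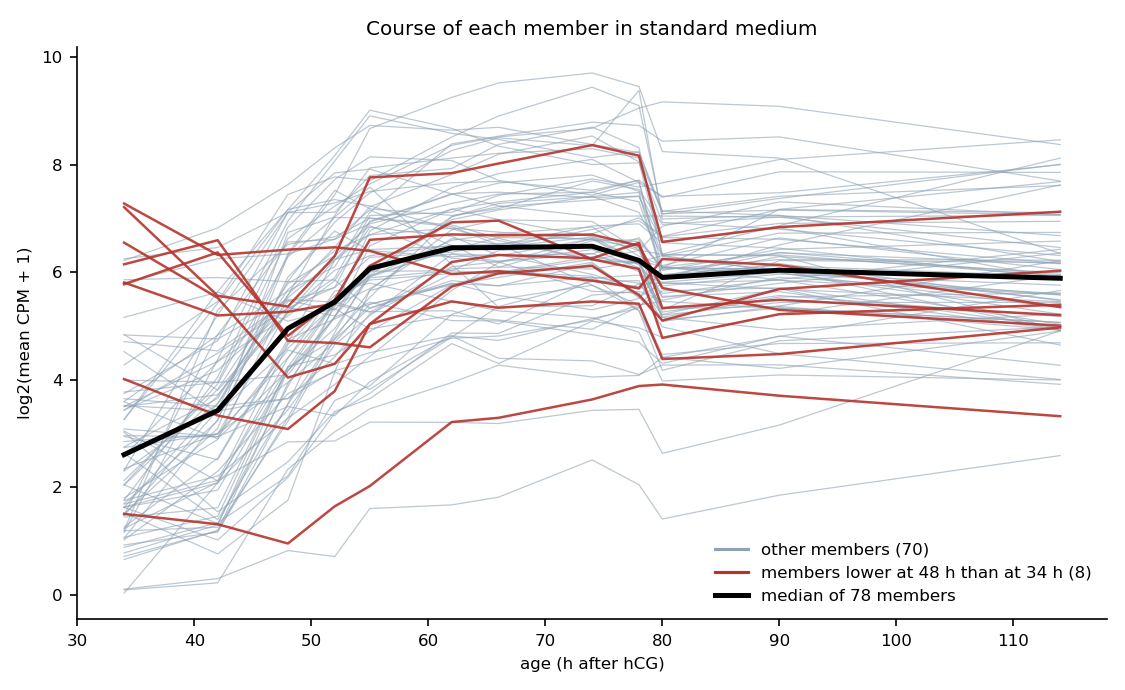
Level of each member against age in the 12 standard groups, as log2 of the mean CPM plus 1; the thick black line is the median of the 78 members and red lines are the 8 members that were lower at 48 h than at 34 h. The median climbs from 2.61 at 34 h to 6.48 at 74 h, while the red lines are lower at 48 h than at 34 h and 7 of them start above the median.

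Mrpl20 rose most. Its level was 1.27, 1.2 and 1.26 CPM in the 3 early 2-cell libraries and 146, 112 and 110 CPM in the late ones, a log2 change of 5.77 ± 0.18 (SE, adjusted p = 8.53e-28). Mrpl49, a protein of the mitochondrial ribosome alone, went from 1.31 ± 0.558 to 90.6 ± 2.13 CPM (log2 change 5.34). Mrpl41 went from 1.81 ± 0.511 to 93.4 ± 10.5 CPM (log2 change 5.08). Mrpl12, which forms the stalk that recruits translation factors, was at 2.61, 2.69 and 1.88 CPM at 34 h and at 110, 119 and 109 CPM at 48 h (log2 change 5.08 ± 0.23, adjusted p = 6.16e-23). Mrpl45, which anchors the ribosome to the inner membrane near the exit tunnel, rose from 18.4 to 173 CPM (SDs of 2.45 and 10). The decoding-site protein Mrps12 rose from 2.23 ± 0.443 to 24.3 ± 2.46 CPM. Mrps34, a small subunit protein of mitochondria alone, stood at 0.0267 ± 0.0235 CPM at 34 h, which is under the level of 1 read in these libraries, and at 9.86 ± 2.8 CPM at 48 h.

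The members that fell were the large subunit proteins Mrpl48, Mrpl24, Mrpl3 and Mrpl9 and the small subunit proteins Mrps33, Mrps27, Mrps5 and Mrps25. The exons of Mrpl48, Mrpl24, Mrpl3, Mrpl9, Mrps27 and Mrps25 overlap those of another gene, so reads of such a pair cannot be told apart. This holds for 31 of the 78 members, but not for Mrps33 and Mrps5. Among the rising members named above it holds for Mrpl49, Mrpl12 and Mrps34, and not for Mrpl20, Mrpl41, Mrpl45 and Mrps12. Mrpl48 was at 86.6, 89.4 and 102 CPM in early and at 16.9, 14.1 and 15.5 CPM in late 2-cell embryos (log2 change -2.51 ± 0.19, adjusted p = 1.58e-15). Mrps33 fell from 147 ± 11.4 to 40.1 ± 9.75 CPM and Mrpl24, a protein near the exit tunnel, from 69.9 ± 14.2 to 25.4 ± 1.65 CPM. Mrpl3, a core protein in which mutations cause respiratory chain deficiency, fell from 53.8 ± 9.28 to 27.2 ± 3.62 CPM. The 3 paralogues of bacterial S18 were all higher in CPM, from 5.20 to 10.7 CPM for Mrps18a, from 14.9 to 97.7 CPM for Mrps18b and from 0.722 to 17 CPM for Mrps18c. The call of Mrps18a did not hold under other scalings, and under quantile scaling it was lower at 48 h (log2 change -0.71, adjusted p from limma 0.00421). Mrps36 did not pass the test (7.28 ± 1.94 and 6.20 ± 1.92 CPM); its protein has since been described as a part of the 2-oxoglutarate dehydrogenase complex rather than of the ribosome.

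Promoter sequences from RefSeq (GRCm38.p6), from 250 bases before to 50 after the start, matched 69 of the members. The motifs below were searched on both strands: the ETS core CCGGAAG, the NRF1 site GCGCA-N-GCGC, the YY1 site AAGATGGCG and the E-box CACGTG, which MYC family proteins can bind. Each motif was searched on its own, so a match may overlap one of another motif, as the ETS core and the YY1 site can. The ETS core was found in 36.2% of member promoters (25 of 69) and in 9.12% of all 27025 promoters of the same length. The NRF1 site was found in 18.8% of members and 4.78% of all, and the YY1 site in 11.6% and 1.49%. The E-box was found in 7.25% of members and 7.24% of all. The promoters of all genes were not matched to those of the members in base composition or expression, so an excess may not be particular to this family. Among the members with a promoter, 19 of 52 that rose by 48 h and 3 of 8 that fell held the ETS core. A match of letters shows neither binding nor use of a site. The 150 bases before the start are shown 5′ to 3′ for 4 members that rose, chosen because they hold motifs or rose most, and then for 3 that fell. Capitals mark matches to the motifs on either strand. The windows are Mrpl20 chr4:155802728-155802877 (+), Mrpl12 chr11:120484487-120484636 (+), Mrps22 chr9:98601680-98601829 (-), Mrpl45 chr11:97315566-97315715 (+), Mrpl3 chr9:105053118-105053267 (+), Mrpl9 chr3:94443186-94443335 (+) and Mrpl48 chr7:100608302-100608451 (-).
Mrpl20: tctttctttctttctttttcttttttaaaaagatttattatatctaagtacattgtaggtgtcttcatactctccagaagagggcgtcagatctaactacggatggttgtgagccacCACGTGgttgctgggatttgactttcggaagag
Mrpl12: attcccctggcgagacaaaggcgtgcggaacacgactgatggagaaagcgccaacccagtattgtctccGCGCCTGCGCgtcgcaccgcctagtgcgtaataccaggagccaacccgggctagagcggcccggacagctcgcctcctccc
Mrps22: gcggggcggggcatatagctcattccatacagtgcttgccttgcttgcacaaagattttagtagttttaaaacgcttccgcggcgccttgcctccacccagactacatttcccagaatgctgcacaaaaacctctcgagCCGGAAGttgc
Mrpl45: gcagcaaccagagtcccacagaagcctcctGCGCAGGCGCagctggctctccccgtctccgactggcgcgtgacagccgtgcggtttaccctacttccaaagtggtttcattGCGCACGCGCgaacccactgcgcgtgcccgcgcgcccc
Mrpl3: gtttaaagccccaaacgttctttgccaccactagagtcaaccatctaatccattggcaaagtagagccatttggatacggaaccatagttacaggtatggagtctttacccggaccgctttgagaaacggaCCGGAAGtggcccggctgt
Mrpl9: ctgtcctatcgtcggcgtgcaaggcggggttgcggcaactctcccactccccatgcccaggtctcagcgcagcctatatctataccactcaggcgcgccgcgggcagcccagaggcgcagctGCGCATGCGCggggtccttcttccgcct
Mrpl48: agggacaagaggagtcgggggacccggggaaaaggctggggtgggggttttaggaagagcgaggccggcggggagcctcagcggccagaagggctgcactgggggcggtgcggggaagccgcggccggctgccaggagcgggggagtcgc
Mrpl20 holds an E-box, Mrpl12, Mrpl45 and Mrpl9 hold NRF1 sites (1, 2 and 1) and Mrps22 and Mrpl3 an ETS core. None of the 4 motifs lies in the Mrpl48 window shown.

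From the late 2-cell to the late 4-cell stage the members rose almost as a whole, while most other genes that moved were lower. Of the 78, 65 were higher and 3 lower, against 24.4% and 46.7% of all genes tested. Their median log2 change was 1.54 and that of all genes -0.39. The counts were 66 and 2 under median-ratio scaling, 70 and 3 under quantile scaling and 72 and 0 with the length trend removed, and all 65 kept their call. Members with a large subunit symbol were higher in 41 of 49 cases and those with a small subunit symbol in 24 of 29.

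Mrps31, a small subunit protein of mitochondria alone, was at 2.18, 2.56 and 2.45 CPM in late 2-cell and at 94.9, 100, 106 and 136 CPM in late 4-cell embryos, a log2 change of 5.01 ± 0.20 (SE, adjusted p = 6.29e-24). Mrpl33 rose from 8.83 ± 0.471 to 130 ± 23.0 CPM. Mrpl58, a peptidyl-tRNA hydrolase that frees stalled ribosomes, rose from 13.7 ± 0.586 to 189 ± 15.5 CPM. Of the 8 members that had fallen by 48 h, all but Mrpl9 now rose. The 48 h libraries by which these 8 were picked are also the baseline of this step, which favours a rise. Most of the other members rose too, so this does not set the 8 apart. Mrpl3 reached 103 ± 10.1 CPM, a log2 change of 1.89 ± 0.13. The 3 lower members were Mrpl9 (log2 change -0.48), Mrpl51 (-0.38) and Mrps6 (-0.62). Their calls were lost with the length trend removed (adjusted p from limma of 0.602, 0.879 and 0.221), and also on leaving out single libraries.

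Other genes of mitochondrial translation were counted over the same steps in CPM as deposited, where 57.7% of all genes were higher by 48 h, and 24.4% were higher and 46.7% lower in the second step. Of 26 measured assembly factors, 18 rose and 3 fell by 48 h, and 13 rose and 8 fell from 48 h to 62 h. Nsun4, an rRNA methyltransferase needed to join the subunits, fell from 202 to 16.3 CPM in the second step. Tufm, the elongation factor, rose from 0.521 to 8.66 and then to 63.5 CPM. All 10 genes of mitochondrial transcription rose by 48 h, Tefm, an elongation factor of the mitochondrial RNA polymerase, from 0.767 to 57.5 CPM. Dap3, a small subunit protein named outside the Mrp scheme, fell from 97.3 to 17.4 CPM.

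From the late 4-cell to the early 32-cell stage 14 members were higher and 39 lower, against 18.8% and 39.9% of all genes. This split depended on the scaling. It was 34 and 17 under median-ratio scaling, 32 and 19 under quantile scaling and 26 and 25 with the length trend removed, and the members' median changed sign, from -0.40 to 0.29 and 0.19 in the first 2 of these. The 14 higher members and 17 of the lower ones kept their calls under all 3. Mrpl1, a stalk protein in bacteria, was at 18.9, 23.2, 32.2 and 34.4 CPM in 4-cell and at 76.3, 81.4, 89.1 and 79.0 CPM in 32-cell embryos, a log2 change of 1.58 ± 0.23 (SE, adjusted p = 8.67e-08). Mrpl36 and Mrpl11 also rose, to 143 ± 5.80 and 58.9 ± 4.72 CPM. Mrps30 was at 253, 238, 228 and 251 CPM in 4-cell and at 82.8, 52.9, 56.3 and 64.6 CPM in 32-cell embryos (log2 change -1.92 ± 0.16). Mrps7, a protein of the small subunit head, fell from 407 ± 66.2 to 110 ± 15.2 CPM, and Mrps26 from 75.7 ± 8.56 to 21.4 ± 2.76 CPM. Mrps18b rose from 327 ± 39.0 to 541 ± 31.3 CPM and Mrps18c, its paralogue, fell from 143 ± 15.1 to 74.3 ± 5.84 CPM, a call that was lost under median-ratio and quantile scaling.

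From the early 32-cell stage to the blastocyst 15 members were higher and 28 lower, against 12.6% and 29.1% of all genes. The other scalings gave 37 and 4 (median-ratio), 19 and 7 (quantile) and 20 and 12 (length trend removed), with the members' median at 0.36, 0.09 and 0.05 in place of -0.25. Without blastocyst library 2 the count of higher members was 9. All 15 higher and 4 of the lower members kept their calls under the 3 scalings. Mrps36 rose most, from 7.38, 7.98, 7.45 and 8.94 CPM to 29, 31.4, 31 and 24.9 CPM (log2 change 1.75 ± 0.20, SE, adjusted p = 9.49e-10). Mrpl42 and Mrps14 rose to 277 ± 93.1 and 196 ± 61.5 CPM. Mrpl22, the most abundant member per kb, fell from 277 ± 33.8 to 80.4 ± 28.7 CPM (log2 change -1.83), and Mrps31, Mrpl47 and Mrps34 fell too under every scaling. In the same step 35 of 37 nuclear subunits of complex I were higher and 0 lower. Trophectoderm markers lay between 1004 and 1490 CPM at 90 h, so the cell types present differ between these groups and their part was not tested.

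**Figure D3:**
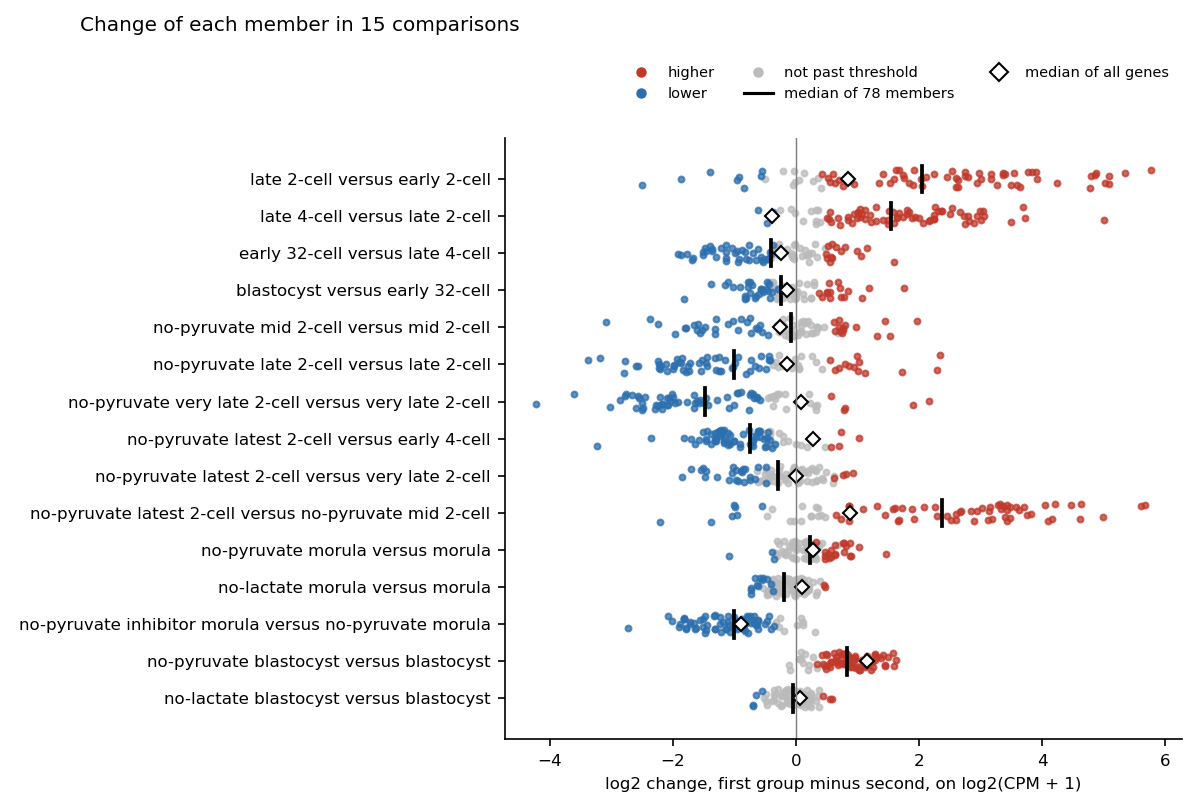
Log2 change of each of the 78 members in 15 comparisons, first-named group minus second, coloured by the test (red higher, blue lower, grey not past the threshold); black bars are the medians of the members and open diamonds the medians of all genes tested. The members lie right of all genes in the first 2 rows and left of them in the no-pyruvate 2-cell rows at 48 h, 52 h and 55 h.

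From 48 h to 55 h without pyruvate, 2-cell embryos had lower levels of most members than standard embryos of the same age. Mrpl24 was higher at all 3 of these ages and Mrpl48 at 48 h and 52 h, whereas Mrpl3 was higher at 48 h and lower at 55 h. At 48 h, 13 members were higher and 51 lower, against 22.6% and 34.3% of all genes (56.8% in either direction), with a median log2 change of -1.01 for the members and -0.14 for all genes. At 52 h, 5 were higher and 56 lower, against 31.9% and 31.3% (63.3% in either direction), with medians of -1.48 and 0.08. At 55 h, when standard embryos were at the 4-cell stage, 4 were higher and 59 lower, against 37.7% and 19.5% (57.2% in either direction), with medians of -0.75 and 0.27. Lower members outnumbered higher ones at these 3 ages under all 3 other scalings, with 40 to 46 lower at 48 h, 52 to 56 at 52 h and 59 to 68 at 55 h. The shares of all genes above are those in CPM as deposited. Summed maternal oocyte markers were between 14035 and 18752 CPM without pyruvate at 48 h, against 2932 to 3072 CPM in standard medium, and between 4246 and 4887 against 694 to 869 CPM at 52 h. These comparisons share standard libraries with the developmental ones.

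At 42 h, 14 members were higher and 27 lower, against 5.58% and 31.2% of all genes. The other scalings turned this split, to 31 and 18 (median-ratio), 39 and 16 (quantile) and 22 and 20 (length trend removed). Mrps33 was at 231, 282, 109 and 146 CPM without pyruvate and at 39.5, 42.9, 61.9 and 40.4 CPM with it (log2 change 1.96 ± 0.24, SE, adjusted p = 1.42e-08). Mrpl35 and Mrps18a were higher as well, at 29.6 ± 8.56 and 5.93 ± 0.410 CPM. Mrpl49 fell to 3.67 ± 1.11 CPM from 38.3 ± 7.39 CPM in standard medium and Mrpl20 to 2.95 ± 0.492 from 19.8 ± 4.86 CPM. Mrps30 was also lower. The 14 higher members kept their calls under the 3 scalings.

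At 48 h, Mrpl28, a large subunit protein with a bacterial homologue, stood at 15.7, 6.04, 6.04, 9.90 and 5.07 CPM without pyruvate and at 90.2, 78.1 and 72.6 CPM in standard embryos, a log2 change of -3.19 ± 0.22 (SE, adjusted p = 7.58e-14). Mrps6 was at 9.95 ± 4.92 against 106 ± 25.3 CPM, and Mrpl12 at 16.2 ± 5.62 against 113 ± 5.44 CPM. Of the role-bearing members, Mrpl44, Mrpl45, Mrpl58, Mrps12, Mrps22, Mrps34 and the 3 Mrps18 paralogues were all lower at 48 h; of these, Mrps18a lost its call under each of the 3 scalings. In the other direction, Mrpl24 stood at 112, 130, 130, 153 and 143 CPM without pyruvate and at 27.0, 23.7 and 25.6 CPM with it (log2 change 2.34 ± 0.22). Mrpl48 was at 80.0 ± 7.76 against 15.5 ± 1.37 CPM, and Mrpl3 at 92.7 ± 13.7 against 27.2 ± 3.62 CPM. No library of one group reached the range of the other for these 3. The exons of these 3, and of Mrps6 and Mrpl12, overlap those of another gene, and those of Mrpl28 do not.

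**Figure D4:**
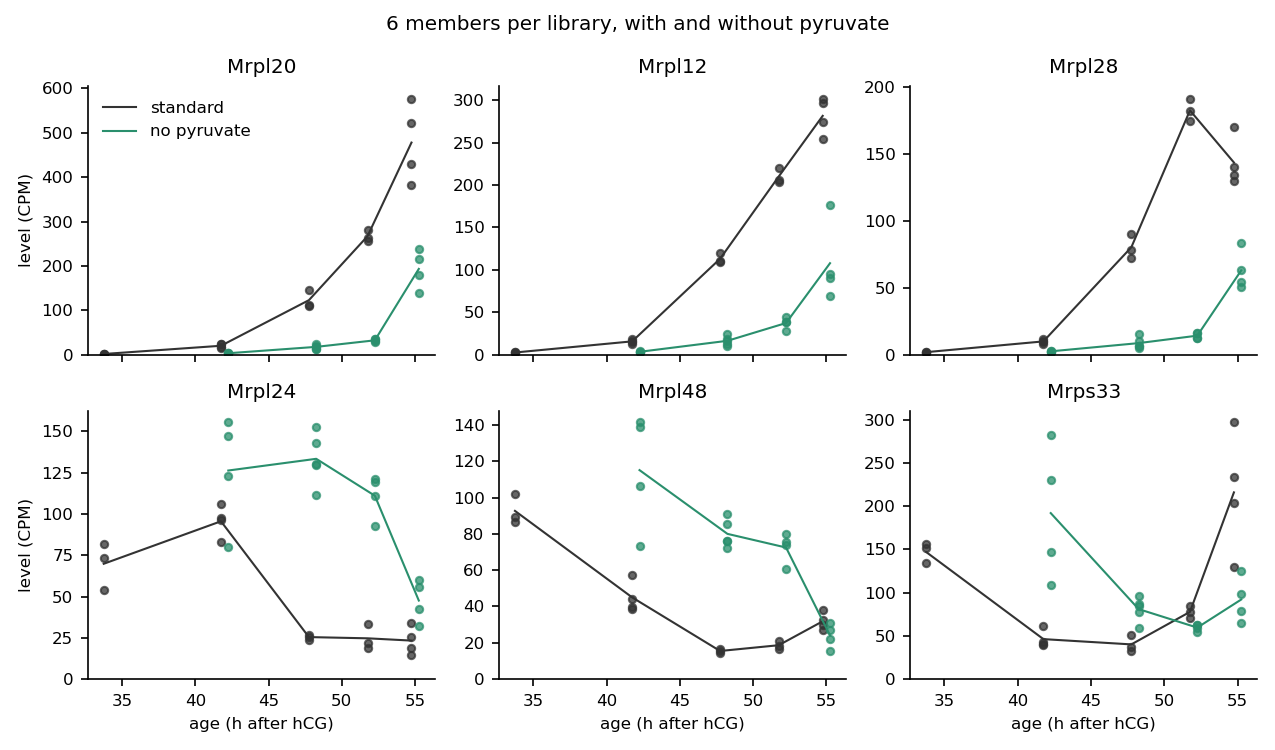
Level in CPM of 6 members in each library (points) and group means (lines) from 34 h to 55 h, with standard medium in black and medium without pyruvate in green. The upper row shows members lower without pyruvate at 48 h and 52 h; Mrpl24 and Mrpl48 in the lower row are higher there, with Mrpl24 at 133 against 25.4 CPM at 48 h.

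At 52 h, Mrpl19 was at 0.391, 2.19, 2.22 and 0.862 CPM without pyruvate and at 42.2, 45.3 and 37.3 CPM in standard embryos, a log2 change of -4.22 ± 0.26 (SE, adjusted p = 4.01e-15). Mrpl28 was at 14.1 ± 2.18 against 183 ± 8.42 CPM and Mrpl20 at 32.1 ± 4.27 against 267 ± 12.1 CPM. The 5 higher members were Mrpl24 (111 ± 13 against 24.7 ± 7.57 CPM), Mrpl48, Mrps14, Mrps25 and Mrpl10. At 55 h, Mrps31 was at 5.01 ± 3.46 CPM without pyruvate and at 49.8 ± 9.31 CPM in early 4-cell embryos, and Mrpl19 and Mrpl17 were lower as well. Mrpl45 was higher there (333 ± 19.2 against 207 ± 29.9 CPM), as were Mrpl10, Mrpl24 and Mrpl16, the last of which lost its call under each scaling.

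Between 42 h and 55 h most members rose in embryos without pyruvate as well. Of the 78, 58 members were higher and 7 lower at 55 h than at 42 h, against 58.4% and 20.7% of all genes (79.1% in either direction). The splits were 49 and 19, 46 and 24, and 50 and 19 under median-ratio scaling, quantile scaling and with the length trend removed. Mrpl22 went from 2.41 ± 0.199 to 177 ± 46.2 CPM and Mrpl20 from 2.95 ± 0.492 to 193 ± 43.3 CPM (log2 changes 5.67 and 5.60). Mrpl48 was at 142, 139, 73.5 and 106 CPM at 42 h and at 27.2, 31.0, 22.2 and 15.7 CPM at 55 h, a log2 change of -2.21 ± 0.18 (SE, adjusted p = 4.02e-13). Mrpl24 and Mrpl3 fell with it. Set against very late 2-cell embryos in standard medium, which are 3 h younger, the 55 h embryos without pyruvate had 4 members higher and 24 lower, against 18.4% and 16.1% of all genes. Quantile scaling gave 8 and 23, and fitting only these 2 groups gave 2 and 13. Mrpl19 was again lower (11.4 ± 4.79 against 41.6 ± 4.04 CPM), and Mrpl28 stood at 63.0 ± 14.6 against 183 ± 8.42 CPM. Mrps18a, Mrps18b and Mrps18c did not pass the test here (adjusted p from limma of 0.428, 0.921 and 0.272).

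In morulae without pyruvate the members changed little. Of the 78, 20 were higher and 3 lower than in standard morulae, against 32.8% and 6.63% of all genes. Other scalings gave 9 and 11, 11 and 9, and 6 and 15 (median-ratio, quantile, length trend removed). The fit of these 2 groups alone gave 11 and 0, and without standard morula libraries 1 and 2 the counts were 23 and 4. Mrps36 had the largest increase in CPM and under every alternative run. It was at 31.7, 32.5, 34.3, 25.2 and 19.0 CPM without pyruvate and, in standard morulae, at 6.52 CPM in the lowest, 9.12 CPM at the median and 15.2 CPM in the highest library (log2 change 1.46 ± 0.21, SE, adjusted p = 1.3e-05). Mrps6 and Mrpl38 rose to 112 ± 24.3 and 52.8 ± 3.98 CPM. Mrps34 rose from 66.7 ± 4.29 to 105 ± 17.9 CPM, a call lost with the length trend removed (adjusted p from limma 0.143). Of the 20 higher members 6 kept their call under all 3 scalings, among them Mrps36, Mrps6 and Mrpl38. The 3 lower members were Mrpl15, Mrpl17 and Mrps22. Mrps22, in which mutations cause respiratory chain deficiency, stood at 2127 CPM in standard morula library 1 and between 210 and 498 CPM in the other 5; its log2 change was -1.09 with that library and -0.66 without it (adjusted p from limma 0.0117). The call was lost with no filter on low genes and when only these groups were fitted (adjusted p from limma of 0.0511 and 0.0804).

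Morulae with KY-PYR-9 in the medium without pyruvate had lower CPM of nearly all members and of most other genes. None of the 78 members was higher and 69 were lower than in morulae without pyruvate, against 8.61% and 67.1% of all genes, with median log2 changes of -1.003 and -0.898. Scaling moved the median of all genes to -0.21, -0.10 and -0.05, and the members to 15 higher and 19 lower under median-ratio scaling, 7 and 30 under quantile scaling and 14 and 28 with the length trend removed. The 100 most abundant genes took 34.6% to 37.5% of the values with the inhibitor and 21.0% to 23.7% without. Trophectoderm markers summed to between 62.6 and 84.7 CPM with the inhibitor and between 266 and 1104 CPM without it. The sums of 4 inner cell mass markers were 73.2 to 107 against 147 to 261 CPM. Those of 6 genes listed as 2-cell markers were 1889 to 2118 against 493.4 to 1398 CPM. That list is not particular to the 2-cell stage, at 117 to 140 CPM in early 2-cell and 1535 to 1920 CPM in late 4-cell embryos. In standard morulae it summed to 569 to 1170 CPM, with 2 of its genes above 1 CPM. The part these play in the result was not tested. The 18 members lower under all 3 scalings include Mrps36, Mrps27, Mrps16, Mrps12, Mrpl45 and Mrpl58. Mrps36 was at 2.78, 4.20, 2.76 and 3.86 CPM with the inhibitor (log2 change -2.73 ± 0.23, SE, adjusted p = 2.46e-09), below each library without it. Mrps27 fell from 101 ± 19.4 to 23.1 ± 3.19 CPM and Mrps16 from 37.7 ± 6.36 to 8.53 ± 1.74 CPM. Mrpl45 was at 147, 173, 169 and 166 CPM, against 865, 687, 886, 434 and 374 CPM without the inhibitor. Mrpl12 did not pass the test (205 ± 18.9 and 236 ± 36.5 CPM), nor did Mrps18b (510 ± 35.6 and 416 ± 71.3 CPM). For cytosolic ribosomal proteins, the proteins of the cell's main ribosome, the count in the same fit was 60 higher and 6 lower of 85. All 15 measured translation factors were lower.

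Without lactate, 2 members were higher and 12 lower in morulae, against 8.38% and 3.42% of all genes. The scalings gave 0 and 15, 0 and 15, and 2 and 17. Without standard morula library 1 the count of lower members was 20, and without library 2 it was 7. It was 6 or 7 without no-lactate library 1, 4 or 5. Mrps15, which sits in the platform of the small subunit, was at 32.3, 33.9, 28.0, 32.5 and 40 CPM without lactate, below the lowest standard library at 46.1 CPM (log2 change -0.74 ± 0.13, SE, adjusted p = 0.00111). Mrps12 fell from 71.1 ± 8.01 to 48.3 ± 6.44 CPM. Mrps33 and Mrpl42 were lower by about the same log2 change (-0.73 and -0.74), Mrpl42 losing its call when single libraries were left out. Mrpl27 and Mrpl43 were the 2 higher members, with log2 changes of 0.47 and 0.46 that lost their calls under median-ratio and quantile scaling.

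In blastocysts without pyruvate 66 members were higher and 0 lower than in standard blastocysts in CPM, in a comparison where 80.8% of all genes were higher and 7.14% lower (87.9% in either direction). The median log2 change was 0.83 for the members and 1.15 for all genes. Median-ratio scaling gave 0 members higher and 47 lower, quantile scaling 10 and 15, and removal of the length trend 12 and 29, with the median of all genes at 0.14, 0.14 and 0.04. No member was called higher under all 3. Only the standard libraries carry the label PVA here, so what goes with it cannot be told apart from the lack of pyruvate. Trophectoderm markers summed to between 9977 and 10926 CPM without pyruvate and between 19077 and 22985 CPM with it, and inner cell mass markers to 151 to 195 against 65.0 to 101 CPM; their part was not tested. Gene length was taken as the bases covered by the exons of all transcripts of a gene. Genes over 4000 bases had a median change of 1.56 and those under 1500 bases one of 0.34. The 100 most abundant genes took 23.2% to 25.2% of the values without pyruvate and 40% to 44.1% with it. In CPM, Mrps34 was at 73.2, 81.7, 66.9, 61.2 and 69.5 without pyruvate and at 20.9, 37.2, 16.0 and 22.2 with it (log2 change 1.57 ± 0.19, SE, adjusted p = 4.89e-07). Mrps27 was at 106 ± 7.88 against 35.8 ± 15.4 CPM and Mrpl38, a protein of mitochondria alone, at 46.7 ± 4.30 against 15 ± 3.36 CPM. Their log2 changes under median-ratio scaling were 0.27, 0.31 and 0.31 and did not pass the test (adjusted p from limma of 0.199, 0.191 and 0.135). Mrpl12 and Mrps18b did not pass it in CPM either, at 261 ± 32.5 against 254 ± 53.5 CPM and 338 ± 27.4 against 330 ± 76.3 CPM.

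Without lactate, 3 members were higher and 4 lower in blastocysts, against 14% and 9.29% of all genes. The scalings gave 2 and 12, 2 and 4, and 3 and 7. Trophectoderm markers lay between 10626 and 13098 CPM without lactate and inner cell mass markers between 134 and 233 CPM, neither overlapping standard blastocysts, and their part was not tested. Mrpl47 was at 47.5, 45.0, 45.4 and 37.5 CPM without lactate and at 29.1, 34.9, 23.5 and 29 CPM with it (log2 change 0.58 ± 0.15, SE, adjusted p = 0.00853). Mrps23 was at 44.7 ± 3.14 against 30.4 ± 4.97 CPM. Mrpl51, the other higher member, lost its call under each scaling. Mrpl23, Mrpl48, Mrps30 and Mrpl37 were lower, and the count of lower members ran from 1 to 14 when single libraries were left out, 14 being without blastocyst library 4.

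Whether the effect of a medium differed between morulae and blastocysts was tested directly. For the lack of pyruvate, 34 members had a higher and 2 a lower effect in blastocysts, against 44.1% and 11.3% of all genes. The scalings gave 2 and 18 (median-ratio), 4 and 5 (quantile) and 12 and 6 (length trend removed). Only Mrpl47, Mrps22, Mrps36 and Mrps6 kept their calls and directions under all 3. Mrpl47 was at 81.5 CPM without pyruvate and 93.7 CPM in standard medium in morulae, and at 78.5 and 29.1 CPM in blastocysts (difference of log2 changes 1.59 ± 0.21, SE, adjusted p from limma 3.19e-06). For Mrps36 the effect was smaller in blastocysts by 0.96 on the log2 scale (a difference of -0.96 ± 0.30). For the lack of lactate, 3 members had a higher and 0 a lower effect in blastocysts, against 4.07% and 6.10% of all genes. These were Mrpl47 (0.96 ± 0.21, adjusted p from limma 0.00613), Mrpl51 and Mrps5. The scalings gave 1 and 1, 5 and 0, and 6 and 0, and without standard morula libraries 1 and 2 the counts were 7 and 1.

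**Figure D5:**
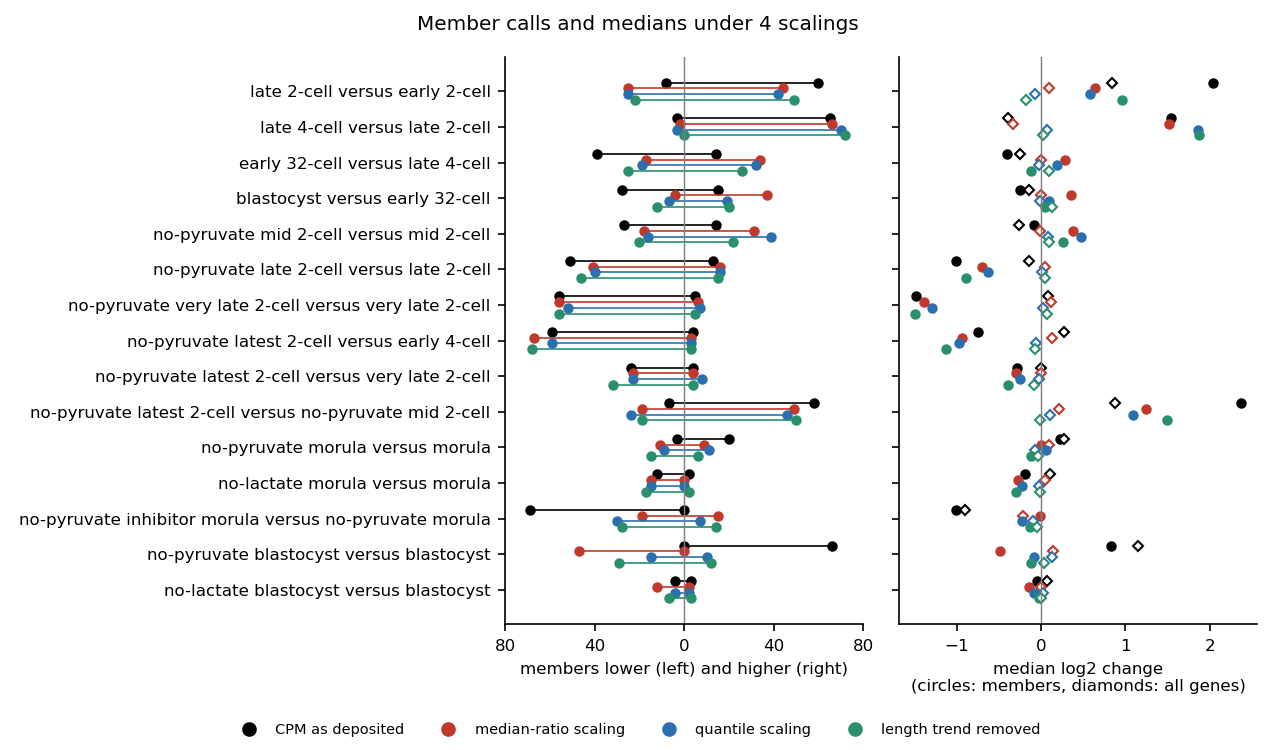
Numbers of members lower and higher (left) and median log2 change of members (circles) and of all genes (diamonds, right) in 15 comparisons, for CPM as deposited and 3 other scalings. The late 4-cell and the no-pyruvate 2-cell rows at 48 h, 52 h and 55 h look alike under all 4, whereas the no-pyruvate blastocyst row runs from 66 members higher in CPM to 47 lower under median-ratio scaling.

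The RNAs of the mitochondrial ribosome are read here only as far as they carry a poly(A) tail or are primed internally. Both rose between 34 h and 48 h, as most members did, mt-Rnr1 from 56.5 ± 5.87 to 331 ± 83.0 CPM and mt-Rnr2 from 894 ± 142 to 2900 ± 164 CPM. Both also rose between 42 h and 55 h without pyruvate (log2 changes 2.41 and 1.82). From late 2-cell to late 4-cell embryos, where 65 members rose, mt-Rnr1 fell to 84.4 ± 53.4 CPM and mt-Rnr2 did not pass the test. In early 4-cell embryos mt-Rnr1, the small subunit RNA, was at 99.0 ± 18.2 CPM, and in 2-cell embryos of the same age without pyruvate at 972 ± 343 CPM (log2 change 3.22, adjusted p from limma 1.06e-13). In morulae mt-Rnr2, the large subunit RNA, was lower without pyruvate (900 ± 617 against 5549 ± 6635 CPM), where standard library 1 alone stood at 18655 CPM. With the inhibitor it was higher than without it, at 5420 ± 1828 CPM (log2 change 2.8, adjusted p from limma 0.000131).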

How the data were processed

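Smart-seq2 libraries were aligned with STAR 2.6.1d to mm10, per the submitters' processing notes; the counting step and its use of strand are not given in the sources used here. The authors deposited CPM values (reads scaled to a fixed library total) for 37368 genes, with a constant of 0.0001 added, which was subtracted. Of the columns, 85 matched a library and 6 others were not used. Rows with 26 numeric names (at most 0.194% of a library) were dropped. Whole reads were not recovered (69.9% to 78.5% of values up to 20 reads lay within 0.1 of a whole number), so no count test was run. At 1 CPM the counting SD was 31.3% in the shallowest and 15.3% in the deepest library. The test was limma 3.58.1 (R 4.3.3) with a mean-variance trend on log2(CPM + 1), over every gene exceeding 1 CPM in 3 or more of the libraries fitted, with Benjamini-Hochberg adjustment over all of them at 0.05. A log2 change on this scale understates changes of low genes. Members were named if they have a known role, if they had the 3 largest changes each way among called members whose groups did not overlap and whose higher group reached 5 CPM, if 5 or fewer went against the common direction, or if extreme in level per kb or in likeness to the median course. Members and lists were chosen with earlier results of these data known. The length trend alternative was added after seeing the data. On simulated data, 123 to 157 of 200 changed genes were recovered in 4 of the comparisons, with 6 to 14 false calls. The changed genes were split evenly between 4-fold and 2-fold changes. Of the 4-fold changes 97 to 100 were recovered, and of the 2-fold changes 26 to 57, so many changes of 2-fold or less would be missed. These fits held only the groups compared, unlike most of the main fits.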

Additional observations from a re-analysis of the deposited data

Results flagged for a closer look

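In groups of 4 to 10 libraries, 1 library standing far from the rest was looked for in 208 combinations of a group with the summed level or a member of known role, and 13 were found; chance gives about 1 in 20. Mrps22 had 4 of them. It stood at 2127 CPM in standard morula library 1 against 210 to 498 in the others, at 311 CPM in no-pyruvate morula library 1 against 192 to 220, at 112 CPM in blastocyst library 2 against 56.4 to 62.7, and at 63.5 CPM in no-lactate blastocyst library 2 against 60.9 to 61.1. The summed level of all members was 6625 CPM in early 16-cell library 3 against 5953 to 6096, and Mrpl58 stood at 81.2 CPM in the same library against 61.5 to 65.9. In mid 2-cell library 3, Mrpl58 was at 2.84 CPM against 0.975 to 1.13 and Mrps18a at 3.00 CPM against 1.0 to 1.3. Mrps12 was at 2.26 CPM in no-pyruvate mid 2-cell library 3 against 4.11 to 4.33. Mrps18a was at 58.2 CPM in no-lactate blastocyst library 3 against 63.4 to 64.4, Mrps18b at 193 CPM in no-pyruvate latest 2-cell library 2 against 135 to 144, Mrps18c at 49.7 CPM in blastocyst library 3 against 78.7 to 84.4, and Mrps36 at 5.33 CPM in no-pyruvate late 2-cell library 2 against 8.65 to 9.71.

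The effect of a medium differed between blastocysts and morulae for some members by the test of the difference itself. For pyruvate, 34 members had a higher and 2 a lower effect in blastocysts, against 44.1% and 11.3% of all genes tested, and 2 of the 34 and both of the others kept their call under the 3 other scalings. The log2 difference was 2.54 for Mrps22, 1.68 for Mrps10, 1.59 for Mrpl47, -0.96 for Mrps36 and -0.88 for Mrps6. Without standard morula library 1 the value for Mrps22 was 2.11, and without libraries 1 and 2 it was 1.98. For lactate, 3 members had a higher effect in blastocysts, against 4.07% of all genes tested, and of these Mrpl47 kept its call under the 3 scalings, with log2 differences of 0.96 for Mrpl47, 0.76 for Mrpl51 and 0.68 for Mrps5.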

How the results depend on the processing

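Depth limits the low members most: 8 stood below 1 CPM at 34 h. The cause of the shifts given here was not tested. In the order median-ratio scaling, quantile scaling and length trend removed, the members lower were 17, 19 and 25 in early 32-cell against late 4-cell embryos, 4, 7 and 12 in blastocysts against early 32-cell embryos, and 19, 30 and 28 with the inhibitor. The members higher were 9, 11 and 6 in morulae without pyruvate, 0, 10 and 12 in blastocysts without pyruvate, 2, 4 and 12 for the pyruvate difference between blastocysts and morulae, and 1, 5 and 6 for the lactate difference. In no-pyruvate mid 2-cell embryos 16 were lower under quantile scaling. In blastocysts without lactate the members lower were 12 under median-ratio scaling, 7 with the length trend removed, 1 with no filter and 2 when only the groups compared were fitted. That fit gave 13 lower at 55 h without pyruvate against very late 2-cell embryos, and 11 higher in morulae without pyruvate.

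The median log2 change of the members took the other sign under some settings. It was 0.29 (median-ratio) and 0.19 (quantile) in early 32-cell embryos, 0.36, 0.094 and 0.0547 (the third with the length trend removed) in blastocysts against early 32-cell embryos, and 0.38, 0.47 and 0.26 in no-pyruvate mid 2-cell embryos. In morulae without pyruvate it was -0.0022 (median-ratio) and -0.11 (length), in blastocysts without pyruvate -0.48, -0.0761 and -0.12, and for the pyruvate difference -0.45 (median-ratio) and -0.13 (quantile).

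Leaving out single libraries, the members lower in morulae without lactate ranged from 6 to 20 and in blastocysts without lactate from 1 to 14. The members higher for the lactate difference ranged from 1 to 7, with 7 also without standard morula libraries 1 and 2. The members' median ranged from -0.13 to 0.0252 in no-pyruvate mid 2-cell embryos, above 0 only without no-pyruvate library 3. In blastocysts without lactate it ranged from -0.11 to 0.021, and was above 0 without blastocyst library 2 (0.021) and without no-lactate library 4 (0.009).

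The replicate numbers tested for pairing were those of the sample titles, which differ from the numbers in the column labels for some groups. In no comparison did every pair with the same title number correlate above 0.1, and in none did every library correlate best with its own number. Pairing by the column numbers was not tested. With the title number as a replicate block, 60 members were higher and 8 lower at 48 h, 50 lower without pyruvate at 48 h, 68 lower with the inhibitor, 66 higher in blastocysts without pyruvate and 9 lower in morulae without lactate.

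Of the 843 log2 changes of named members recomputed with 1 library left out, 76 lost their call and 767 did not.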
